A study of Mus musculus with 6 samples.

Results

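The heat shock proteins and chaperones of the mouse heart were read as the genes whose array names begin as those of the Hspa to Hsph series, Hsp90, the Dnaja, Dnajb and Dnajc series, Cct2 to Cct8, Bag1 to Bag6 or Hsf1 to Hsf4. This pattern took 125 probes of 90 genes, of 55681 probes and 23688 gene names on the array, and each gene was read from its probe with the highest mean signal over the 6 arrays. The study compared hearts of 3 sham mice with hearts of 3 mice after 28 days of tail-suspension, which lifts the hindlimbs off the floor to simulate weightlessness. All animals were male C57BL/6 mice with no transgene and no drug, and the sham mice were kept in the same space with the same feeding and were not suspended. The labels give an age of 10 weeks at the start of suspension and 11 weeks for the animals, and these ages do not add up over a suspension of 28 days. Each heart gave 1 array of the Agilent 1-colour type. Levels are log2 values of the processed intensity relative to the 75th percentile of the same array, so that 0 is the brightness of that percentile, and levels of different probes cannot be set against each other. Hspg2 fits the name pattern but encodes perlecan, a heparan sulfate proteoglycan and no chaperone. Hspa1b is no name on this array, and its sequence is nearly that of Hspa1a, so a signal of the Hspa1a probe is uncertain as to its gene.

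Chaperones hold unfolded or partly folded proteins until they reach their native form. The HSP70 proteins work in cycles that are started by J proteins of the Dnaj series and ended by exchange factors such as the HSP110 and Bag proteins, the chaperonins enclose a client in a ring, and the small heat shock proteins, of which heart muscle makes several, keep clients from aggregating without using ATP. Heat shock factors bind the promoters of the inducible genes, whereas chaperones of the endoplasmic reticulum are induced through the unfolded protein response of that compartment.

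After tail-suspension more chaperone genes were lower than higher in the heart. Lower were 3 of 6 small heat shock protein genes of muscle and both genes of the mitochondrial chaperonin. So were 3 of 4 Dnaja genes and the HSP110 gene Hsph1, whereas Hsf4, Hspa1l, Dnajb12 and Dnajb2 were higher. Of the 90 genes, 81 were tested, because their probe stood well above background throughout 1 group or both, and 80 of them did so on all 6 arrays. The other 9 genes were Cct8l1, Dnajb7, Dnajb8, Dnajb13, Dnajc5g, Dnajc6, Dnajc22 and Hsf3, which were not well above background on any array, and Dnajc5b, which was so on 2 arrays of each group. At an adjusted p under 0.05 by limma, with Benjamini-Hochberg adjustment over all 28032 tested probes, 4 of the 81 genes were higher and 16 lower, which is 4.94% and 19.8%. Among all 14959 genes tested, 10.4% were higher, 11% were lower and 21.4% were called in either direction, against 24.7% of the chaperone genes. One lower gene, Dnajb3, passed the filter only through the sham arrays, and such a filter favours a fall. Among the 80 genes well above background on all 6 arrays 4 were higher and 15 lower (18.8%), where 9.94% and 10.7% of all 14299 such genes were. The tail-suspension arrays lay entirely below the sham arrays for 27 chaperone genes and entirely above them for 11, where 25.4% and 21.7% of all genes did so. The median log2 fold change of the chaperone genes was −0.09 against −0.02 for all genes, and the median size of change was 0.19 against 0.24. With a 2-fold minimum 1 gene was higher (Hspa1l) and 1 lower (Hspb3), where 2.74% and 1.95% of all genes were.

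**Figure D1:**
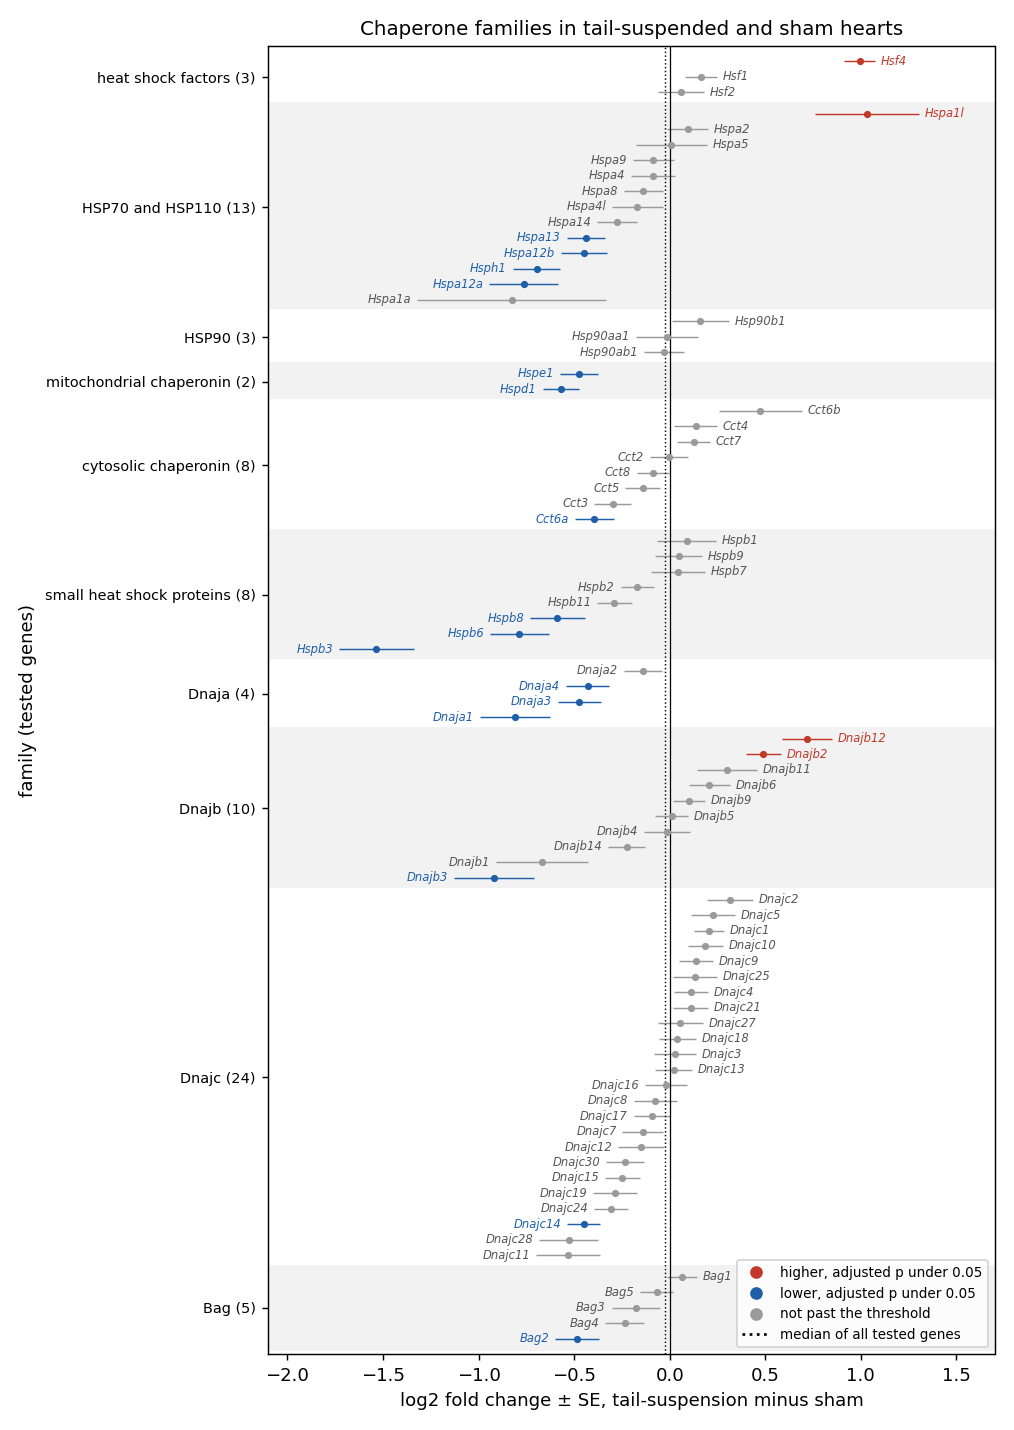
Log2 fold change of each tested gene by family, as tail-suspension minus sham (points, 3 arrays a group) with its standard error (bars); red and blue genes passed an adjusted p of 0.05, and Hspg2 is left out. The 3 HSP90 genes lie within 0.16 of 0, both mitochondrial chaperonin genes and 3 of 4 Dnaja genes are lower, and the 24 Dnajc genes lie on both sides of 0 with 1 call.

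The calls depended on the arrays that were compared. A value in parentheses after an array that was left out is the adjusted p without it (limma). The slide had 2 rows of arrays. Its first row held all sham hearts with tail-suspension replicate 1 and its second row the remaining 2 suspended hearts, so that row and group cannot be fully told apart. With the row as a block the comparison rests on tail-suspension replicate 1 against sham: all 20 called genes kept their direction, but only Hsf4 stayed past the threshold, where 1.2% of all genes were still higher and 0.722% lower. Without sham replicate 2, 2 of the 20 stayed called, Hsf4 and Hspb3. The number was 6 without tail-suspension replicate 3, 8 without sham replicate 1, 10 without tail-suspension replicate 1, 14 without sham replicate 3 and 15 without tail-suspension replicate 2.

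Other cells of the heart moved with the groups as well. In RNA of a whole heart, fewer cells of a type and less RNA per cell cannot be told apart. All 8 cardiomyocyte markers were well above background on every array, and their summed log2 level was 12.09 to 12.23 in sham and at most 12.02 in tail-suspension, with Actc1 lower and the other 7 not past the threshold. Of 4 neutrophil markers on the array 3 were tested and all 3 were higher, Retnlg having passed the filter only through tail-suspension, with a summed level of −0.81 to −0.12 in sham and 2.98 to 5.63 in tail-suspension, and Retnlg and Mmp8 stayed near background in every sham heart. The 3 red cell markers summed to 8.75 to 9.44 in sham and 6.74 to 8.43 in tail-suspension. Of the 4 endothelial markers Kdr and Tie1 were lower and 2 did not pass, 1 of them with a log2 fold change of 0.19. The 4 summed to 5.18 to 5.30 in sham and 4.77 to 4.91 in tail-suspension. The part of these cell types in the chaperone values was not tested. Of the 4 skeletal muscle markers Myh1, Myh4 and Actn3 were not well above background on any array. The fourth, Tnnt3, was tested and did not pass, at a log2 fold change of 0.62.

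**Figure D2:**
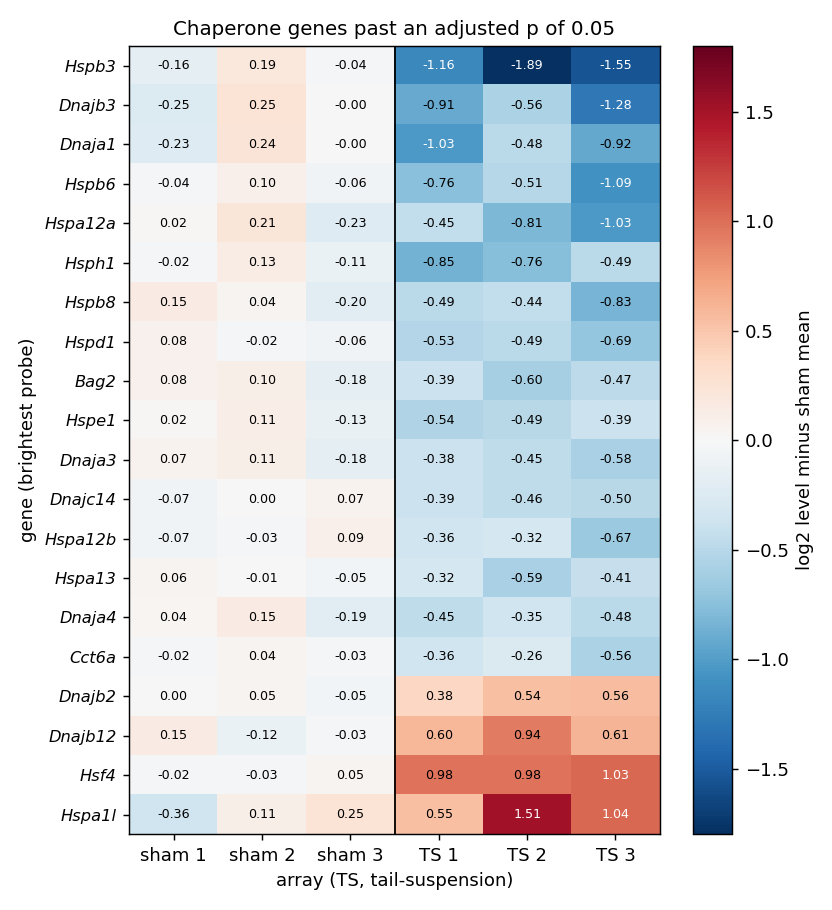
Log2 level on each array minus the mean of the 3 sham arrays for the 20 genes past an adjusted p of 0.05, with red for higher and blue for lower. In every row all 3 tail-suspension (TS) arrays lie on the same side of the 3 sham arrays; Dnajb3 stood near background in every suspended heart.

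The small heat shock proteins held the largest fall among the chaperone genes. Hspb3, a small heat shock protein found mainly in muscle, had a level of 2.89, 3.24 and 3.01 in sham and 1.88, 1.16 and 1.50 in tail-suspension. All 3 suspended hearts lay below all sham hearts, by more than 1 on the log2 scale. The means were 3.05 ± 0.18 (SD, n = 3) and 1.51 ± 0.36 (SD, n = 3), a fall of 2.90-fold (log2 fold change −1.53, standard error 0.20, adjusted p = 0.00583, limma). With each array left out its adjusted p was at most 0.0291, and with the row as a block the value was −1.16 (adjusted p = 0.06, limma). Its probe lies on mm9 at chr13:114453236-114453295, minus strand, and its first 30 of 60 bases are shown because the largest fall was read from them.
Hspb3 probe: atcctctgtcatgatggaatcttggtggtg

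Hspb6, a small heat shock protein of heart and smooth muscle that is phosphorylated by protein kinase A, was lower in the same hearts. Its level was 8.29, 8.42 and 8.26 in sham and 7.56, 7.81 and 7.23 in tail-suspension. The groups did not overlap, and the suspended hearts spread more (SD 0.29) than the sham hearts (SD 0.09). The fall was 1.72-fold (log2 fold change −0.79, standard error 0.16, adjusted p = 0.0197, limma), and the call was lost without sham replicate 1 (0.0583), sham replicate 2 (0.0777) or tail-suspension replicate 1 (0.0529). Hspb8, which works with Bag3 in the removal of damaged proteins from muscle, had 6.22, 6.11 and 5.87 in sham against 5.58, 5.62 and 5.24 in tail-suspension. It fell by 0.59 in log2 units (standard error 0.14, adjusted p = 0.0353, limma), with no overlap, and the call was lost without sham replicate 1 (0.105), sham replicate 2 (0.115), tail-suspension replicate 1 (0.0679) or tail-suspension replicate 3 (0.0925).

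The other small heat shock proteins did not pass the threshold. Hspb1, the most widely made member of the group, had a log2 fold change of 0.09, with 7.38, 7.95 and 7.61 in sham and 7.67, 7.68 and 7.86 in tail-suspension. The values of the groups lie within each other. Hspb7, a small heat shock protein of heart muscle, was at 0.04 (adjusted p = 0.85, limma), and Cryab, the alpha-B crystallin that binds desmin and stands outside the name pattern, was at 0.06 (adjusted p = 0.664, limma). The signs of these values turned in some of the alternatives. Of the 8 tested genes grouped by an Hspb name, Hspb11 included, 3 were lower (37.5%) and none higher, against 11% and 10.4% of all genes. Their median log2 fold change was −0.23.

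Among the HSP70 and HSP110 genes, 4 of 13 were lower (30.8%) and 1 was higher (7.69%), against 11% and 10.4% of all genes. These counts rest on the brightest probe of each gene. Hspa4 did not pass by that probe, while its other 2 probes were lower. Hspa13 was lower by it, while its second tested probe, at −0.30, did not pass. Hsph1, an HSP110 protein that exchanges the nucleotide of HSP70, had a level of 3.21, 3.36 and 3.11 in sham and 2.38, 2.47 and 2.74 in tail-suspension. The highest suspended heart lay below the lowest sham heart. It fell by 0.70 in log2 units (standard error 0.13, adjusted p = 0.0153, limma), a second probe gave −0.77, and the call was lost only without sham replicate 2 (0.0629) among the single arrays left out. Hspa12a, a distant relative of HSP70, fell by 0.76 (standard error 0.18, adjusted p = 0.0319, limma), from −1.81, −1.61 and −2.06 to −2.28, −2.64 and −2.85. Its call was lost without sham replicates 1 (0.0897) or 2 (0.107) or tail-suspension replicates 2 (0.0652) or 3 (0.0905), and its log2 fold change was −0.45 with the row as a block and −0.50 under the normexp background correction. Hspa12b, which is enriched in endothelial cells, fell by 0.45 and Hspa13, an HSP70 relative of the endoplasmic reticulum, by 0.44. Without sham replicate 2 their adjusted p was 0.12 and 0.0957 (limma), and 5 and 4 of the 6 arrays, left out in turn, ended the calls. Of the 4 endothelial markers Kdr and Tie1 fell in the same hearts, by 0.55 and 0.44. The other 2 did not pass, and 1 of them was at 0.19. Their part in the fall of Hspa12b was not tested.

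Hspa1l, an HSP70 gene known for its expression in the testis, was higher. Its level was −1.30, −0.83 and −0.69 in sham and −0.39, 0.57 and 0.10 in tail-suspension. The suspended hearts lay above the sham hearts but spread widely, with an SD of 0.48 against 0.32. The rise was 2.05-fold (log2 fold change 1.03, standard error 0.27, adjusted p = 0.041, limma), and 5 of the 6 arrays, left out in turn, ended the call (0.0627 to 0.113), all but tail-suspension replicate 1. With the row as a block it was 0.55 (adjusted p = 0.344, limma).

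Its neighbour Hspa1a, the main heat-inducible HSP70 gene, varied most between hearts of the same group. The RefSeq start sites of both genes lie 547 bases apart on opposite strands of chromosome 17 (GRCm38.p6), and they are transcribed away from each other. The level of Hspa1a was −0.96, 0.51 and −0.21 in sham and −1.70, −0.14 and −1.29 in tail-suspension. The groups overlapped, and the spread within groups, 0.78 on the log2 scale, ranked 1 of the 81 tested genes, whose median was 0.12. Its log2 fold change of −0.83 (standard error 0.50) did not pass (adjusted p = 0.265, limma). With an array left out it ran from −1.28 to −0.46, and with the row as a block it was −1.49 (adjusted p = 0.261, limma). Of the 18 alternative fits it passed in 1, with the replicate number as a block (adjusted p = 0.0292, limma). The constitutive HSP70 gene Hspa8 was at −0.14, the mitochondrial Hspa9 at −0.08 and Hspa2, another HSP70 gene known from the testis, at 0.09, none of them past the threshold.

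No HSP90 gene passed the test. Hsp90aa1, the inducible cytosolic form, had 4.09, 4.55 and 4.05 in sham and 4.05, 4.36 and 4.24 in tail-suspension. The groups covered the same range. Its difference in log2 units came to −0.01 (standard error 0.16, adjusted p = 0.959, limma), that of the constitutive form Hsp90ab1 −0.03 (adjusted p = 0.849, limma) and that of Hsp90b1, the form of the endoplasmic reticulum, 0.16 (adjusted p = 0.469, limma). The signs of the first pair turned under some alternatives.

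**Figure D3:**
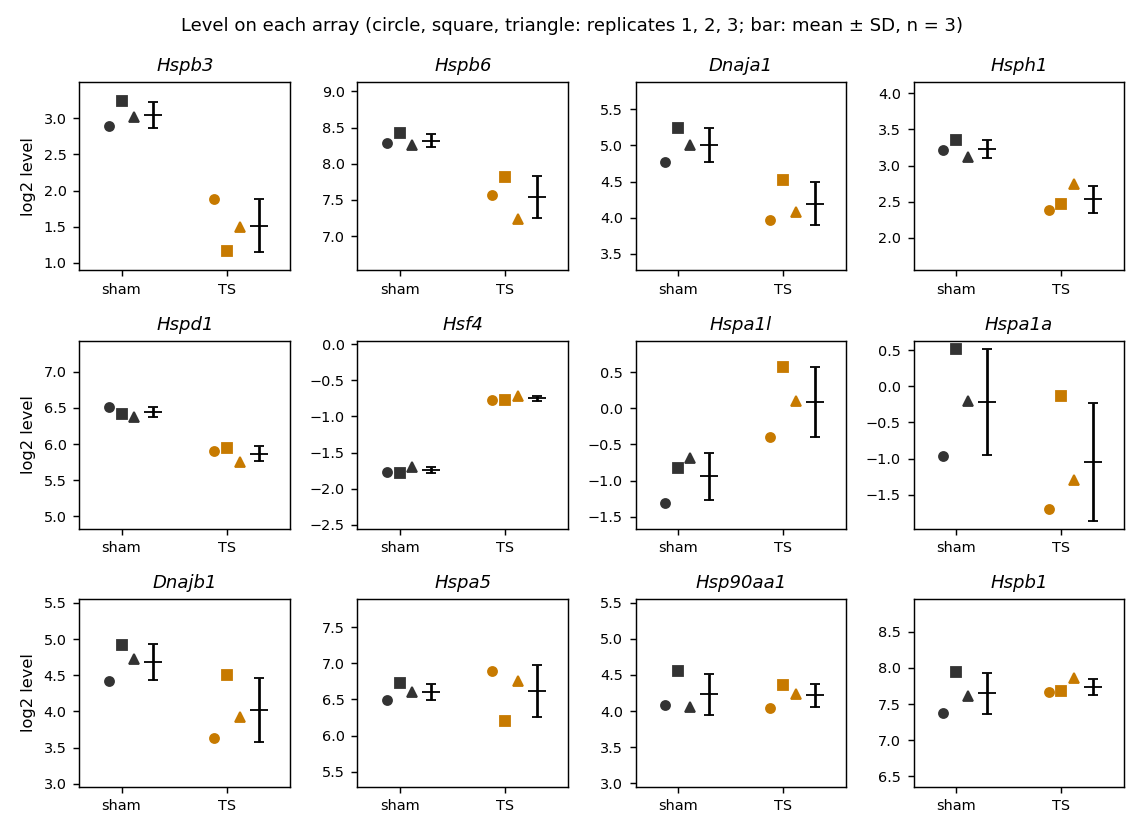
Log2 level of 12 chaperone genes on each array, with sham in grey and tail-suspension (TS) in orange, a separate symbol for each replicate number and the mean ± SD of 3 arrays as a bar; every panel spans 2.6 on the log2 scale. The groups are apart for Hspb3, Hspb6, Dnaja1, Hsph1, Hspd1, Hsf4 and Hspa1l, and overlap for Hspa1a, Dnajb1, Hspa5, Hsp90aa1 and Hspb1.

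The J proteins moved in both directions. Of 38 tested genes 2 were higher (5.26%) and 5 lower (13.2%), against 10.4% and 11% of all genes. The 5 include Dnajb3, which passed the filter only through the sham arrays. Among the 37 genes well above background on all 6 arrays 2 were higher (5.41%) and 4 lower (10.8%). Of all such genes 9.94% were higher and 10.7% lower, so the share of lower J proteins was near that of all genes. The lower ones held 3 of the 4 Dnaja genes, and the 24 Dnajc genes held 1 call. Dnaja1, a main J protein partner of the constitutive HSP70 in the cytosol, had a level of 4.77, 5.24 and 5.001 in sham and 3.97, 4.53 and 4.09 in tail-suspension. In both groups replicate 2 was the highest, and the groups did not overlap. The fall was 1.75-fold (log2 fold change −0.81, standard error 0.18, adjusted p = 0.0285, limma), a second probe gave −0.94, and the call was lost without sham replicates 2 (0.0961) or 3 (0.0662) or tail-suspension replicates 1 (0.0766) or 3 (0.0901). Dnaja3, the J protein of the mitochondrial matrix, fell by 0.47 (adjusted p = 0.0319, limma) from 5.52, 5.56 and 5.28 to 5.07, 4.999 and 4.87, and Dnaja4 by 0.43 (adjusted p = 0.042, limma). Each of these calls was lost with 5 of the 6 arrays left out in turn, sham replicate 3 being the exception, with an adjusted p of up to 0.113 for Dnaja3 and 0.135 for Dnaja4 (limma).

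Dnajb1, the main heat-inducible J protein, did not pass. Its level was 4.42, 4.92 and 4.72 in sham and 3.63, 4.50 and 3.92 in tail-suspension. Tail-suspension replicate 2 reached into the sham range, and its log2 fold change, −0.67, had no call (standard error 0.24, adjusted p = 0.0919, limma). It was called lower in 3 of the 18 alternative fits, with array weights (adjusted p = 0.0252, limma), in the fit blocked on replicate number (0.0407) and without tail-suspension replicate 2 (0.0255). With the row as a block it was at −1.06 (adjusted p = 0.132, limma). Dnajb12, a J protein anchored in the membrane of the endoplasmic reticulum that faces the cytosol, was higher. Its level was 1.13, 0.85 and 0.95 in sham and 1.58, 1.92 and 1.59 in tail-suspension. It rose 1.64-fold (log2 fold change 0.72, standard error 0.13, adjusted p = 0.0154, limma), and the call was lost only without sham replicate 2 (0.0636) among the single arrays left out.

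Dnajb2, a J protein with ubiquitin-interacting motifs, was higher on all 3 suspended hearts. Its level was 3.73, 3.78 and 3.68 in sham and 4.11, 4.27 and 4.29 in tail-suspension, a rise of 0.49 (standard error 0.09, adjusted p = 0.016, limma). The sham hearts lay within 0.10 of each other. The call was lost without sham replicate 1 (0.0541), sham replicate 2 (0.0573) or tail-suspension replicate 3 (0.0623), and a second probe, also at 0.49, did not pass. Dnajc14, a J protein of the endoplasmic reticulum membrane, fell by 0.45 (standard error 0.09, adjusted p = 0.0177, limma) from −1.86, −1.79 and −1.73 to −2.18, −2.26 and −2.30, and its call was lost without sham replicate 2 (0.0715) or tail-suspension replicate 3 (0.0681). Dnajb3, a J protein known from the testis, was well above background on all 3 sham arrays and on no tail-suspension array. It thus entered the test only through the group in which it was high, and its call is no finding. It was at least 1.64-fold higher in sham, a bound that sets the sham mean against the lowest signal well above background on each tail-suspension array. Its fitted log2 fold change was −0.92 (adjusted p = 0.0286, limma), and −0.44 under the normexp background correction (adjusted p = 0.0262, limma). Its call was lost without sham replicates 2 (0.0975) or 3 (0.0671) or tail-suspension replicates 1 (0.0721) or 3 (0.0725).

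Both genes of the mitochondrial chaperonin were lower. Hspd1 encodes the ring protein of the chaperonin and Hspe1 its lid. Hspd1 had a level of 6.51, 6.42 and 6.38 in sham and 5.91, 5.95 and 5.75 in tail-suspension, a fall of 1.48-fold (log2 fold change −0.57, standard error 0.09, adjusted p = 0.0121, limma). Hspe1 had 5.75, 5.85 and 5.61 in sham and 5.20, 5.24 and 5.35 in tail-suspension, a fall of 1.39-fold (log2 fold change −0.47, standard error 0.10, adjusted p = 0.0233, limma). In both genes the highest suspended heart lay below the lowest sham heart. The other 2 tested probes of Hspe1 gave −0.45, past the threshold, and −0.24, which did not pass. The call of Hspd1 was lost without sham replicate 2 (0.0511), and that of Hspe1 without sham replicates 1 (0.0739) or 2 (0.0882) or tail-suspension replicates 1 (0.0691) or 3 (0.0569).

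By the brightest probe of each gene, all 9 chaperone genes listed for the mitochondrion had log2 fold changes below 0, from −0.57 to −0.08. Of them 3 passed (33.3%), namely Hspd1, Hspe1 and Dnaja3, where 11% of all genes were lower. The median of the 9 was −0.47, against −0.02 for all genes. A second tested probe of Dnajc19 lay at 0.10 and did not pass, while its brightest probe was at −0.29. The direction of all 9 was the same in each of the 18 alternative fits, and with the row as a block the median was −0.27 with no gene past the threshold.

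Of the heat shock factors, Hsf4 was the only one past the threshold. Hsf4, which is known best from the lens of the eye, had a level of −1.76, −1.78 and −1.69 in sham and −0.77, −0.77 and −0.71 in tail-suspension. Within each group the hearts lay within 0.10 of each other. The means were −1.75 ± 0.04 (SD, n = 3) and −0.75 ± 0.03 (SD, n = 3), a rise of 1.99-fold (log2 fold change 0.99, standard error 0.08, adjusted p = 0.00216, limma). It was past the threshold in all 18 alternative fits, with an adjusted p between 0.000861 and 0.0332 and a log2 fold change between 0.64, under the normexp background correction, and 1.02. Hsf1, the main regulator of the heat shock response, was at 0.17 (adjusted p = 0.2, limma) with 2.15, 2.12 and 2.04 in sham and 2.21, 2.34 and 2.26 in tail-suspension. Hsf2 was at 0.06 (adjusted p = 0.745, limma), and Hsf3 was not well above background on any array. The first 30 of 60 bases of the Hsf4 probe (mm9, chr8:107799573-107799632, plus strand) are shown because the call that held in all of these fits was read from it.
Hsf4 probe: tgaaaaagcctggctaaggaactagcacgc

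Genes known to be induced through heat shock factors were lower or did not pass. Of 13 tested genes 5 were lower (38.5%), namely Dnaja1, Hsph1, Hspb8, Hspd1 and Hspe1, and none was higher. Among all genes 11% were lower and 10.4% higher. Hspd1 and Hspe1 are in the mitochondrial list as well. By the brightest probe 12 of the log2 fold changes were below 0, and the median was −0.47 against −0.02 for all genes. The 8 genes that did not pass included Hspa1a, Dnajb1, Bag3, Hspa8, Hsp90aa1 and Hspb1. Their values lay between −0.83 and 0.09. The number below 0 was 10 under the normexp background correction and 11 under quantile normalization, and the number called lower was 0 with the row as a block and 0 without sham replicate 2.

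**Figure D4:**
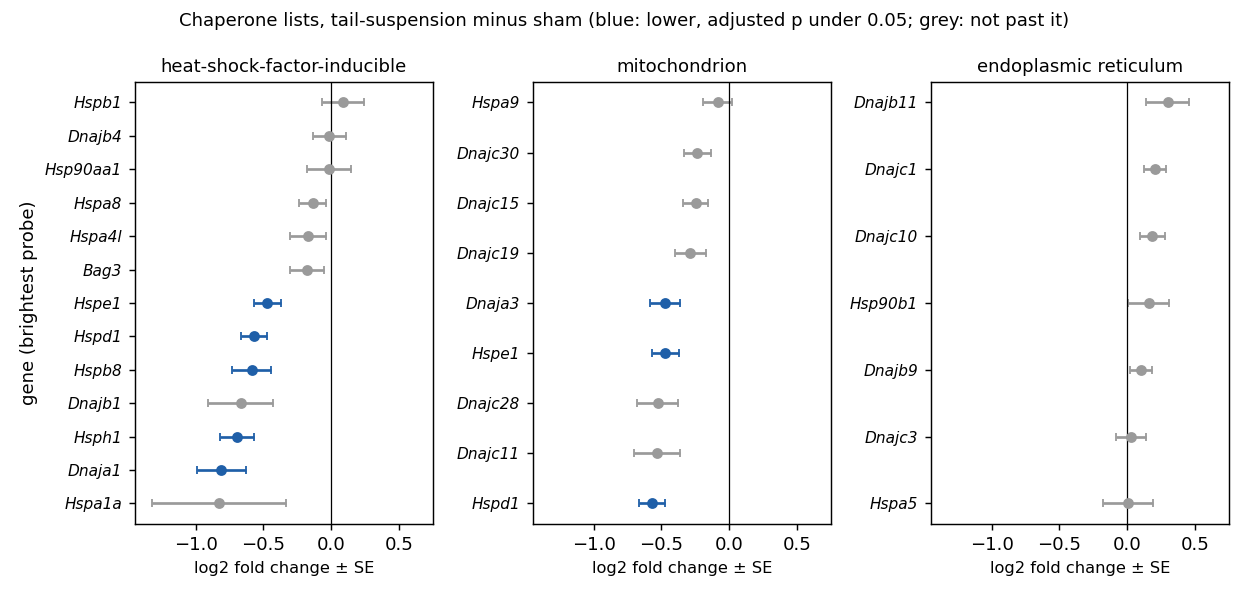
Log2 fold change of each gene in 3 lists, as tail-suspension minus sham, with its standard error as a bar (3 arrays a group); blue genes were lower at an adjusted p under 0.05 and grey genes did not pass. By the brightest probe of each gene, the inducible list runs from −0.83 to 0.09 and the mitochondrial list from −0.57 to −0.08. The list of the endoplasmic reticulum runs from 0.01 to 0.30 with no call. Hspd1 and Hspe1 are in both the inducible and the mitochondrial list.

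Promoters were searched for the element that heat shock factors bind, in the 250 bases before the start site in the RefSeq promoters of GRCm38.p6, which hold 72 of the 90 genes. The short form, GAANNTTC or TTCNNGAA, reads the same on both strands. It lay before 16 of the 72 genes (22.2%) and before 3932 of all 27025 genes (14.5%). Among the genes called lower it lay before 7 of 15 (Dnaja1, Dnaja4, Hspb3, Hspb6, Hspd1, Hspe1 and Hsph1), and among those called higher before 0 of 3. Of the tested genes that did not pass 8 of 47 had it, Hspa1a and Hspb1 among them. The longer form holds 3 units, with GAA and TTC in alternation and NN between them, and so contains the short form. It lay before Dnajb6, Hspd1 and Hspe1, and before 0.514% of all genes. A match of letters is a description of the window and not of binding.

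Hspd1 and Hspe1 are transcribed away from each other on chromosome 1. By 1 RefSeq transcript of Hspd1 the start sites lie 216 bases apart, and the same stretch stands before both. By the other the transcripts overlap, and the stretch before Hspe1 lies inside that Hspd1 transcript. The 150 bases before the start site are shown for Hspe1 (chr1:55087998-55088147, plus strand), Hsph1 (chr5:149636316-149636465, minus strand), Dnaja1 (chr4:40722318-40722467, plus strand) and Hspb6 (chr7:30553151-30553300, plus strand), which fell and hold the element, on GRCm38.p6. Capitals mark the matches, which in Hspe1 are 2 overlapping long forms.
Hspe1 promoter: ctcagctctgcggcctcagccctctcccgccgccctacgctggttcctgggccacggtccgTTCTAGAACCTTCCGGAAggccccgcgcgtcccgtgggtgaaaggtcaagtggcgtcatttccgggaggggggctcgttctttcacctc
Hsph1 promoter: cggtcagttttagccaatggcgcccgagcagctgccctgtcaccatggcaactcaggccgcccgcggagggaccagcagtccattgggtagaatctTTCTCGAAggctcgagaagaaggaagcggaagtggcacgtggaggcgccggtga
Dnaja1 promoter: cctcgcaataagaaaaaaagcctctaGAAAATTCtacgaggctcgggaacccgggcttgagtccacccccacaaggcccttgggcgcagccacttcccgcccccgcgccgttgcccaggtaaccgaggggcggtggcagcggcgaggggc
Hspb6 promoter: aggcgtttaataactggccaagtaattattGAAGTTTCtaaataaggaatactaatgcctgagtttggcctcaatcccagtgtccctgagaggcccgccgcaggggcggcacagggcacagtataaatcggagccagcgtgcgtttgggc
The match begins 89 bases before the start site in Hspe1, 54 in Hsph1, 124 in Dnaja1 and 120 in Hspb6.

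None of the 7 chaperone genes listed for the endoplasmic reticulum passed the test, while Hspa13, Dnajb12 and Dnajc14, which belong to this compartment or its membrane and stand outside the list, did. All 7 had log2 fold changes above 0, from 0.01 to 0.30, with a median of 0.16, and the suspended hearts lay entirely above the sham hearts for 2 of them, where 21.7% of all genes did so. The count depended on single arrays, since 5 of the 7 were above 0 without sham replicate 1 or tail-suspension replicate 1, and the median was 0.080 without tail-suspension replicate 1 and 0.099 without tail-suspension replicate 3. Hspa5, the HSP70 of this compartment and its main stress marker, had 6.50, 6.72 and 6.60 in sham and 6.89, 6.20 and 6.75 in tail-suspension. The suspended hearts lay on both sides of the sham hearts, and the mean difference in log2 units came to 0.01 (standard error 0.19, adjusted p = 0.979, limma). Its sign turned to −0.07 under quantile normalization, so that 6 of the 7 were then above 0. Hsp90b1 had 5.81, 5.80 and 5.80 in sham and 6.16, 5.63 and 6.10 in tail-suspension. In both genes tail-suspension replicate 2 was the lowest of all hearts. The endoplasmic reticulum stress element is CCAAT followed by CCACG with 9 letters between them, on either strand. It lay before 3 of the 7 listed genes, Dnajc3, Hsp90b1 and Hspa5, and before 35 of the 27025 genes. Capitals show it in the 150 bases before Hspa5 (chr2:34771940-34772089, plus strand, GRCm38.p6).
Hspa5 promoter: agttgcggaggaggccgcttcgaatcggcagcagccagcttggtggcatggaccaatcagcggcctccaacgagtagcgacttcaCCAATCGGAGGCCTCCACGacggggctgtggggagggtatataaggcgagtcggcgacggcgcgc

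The cytosolic chaperonin and the Bag proteins each held 1 call. Cct6a, a subunit of the ring that folds actin and tubulin, fell by 0.39 (standard error 0.10, adjusted p = 0.0414, limma) from 1.53, 1.59 and 1.52 to 1.19, 1.29 and 0.99, and the other 7 tested genes of this family did not pass. Bag2, which restrains a ubiquitin ligase bound to HSP70, fell by 0.49 (standard error 0.11, adjusted p = 0.0314, limma) from 3.11, 3.13 and 2.85 to 2.64, 2.43 and 2.56. The groups of both genes were apart, and each call was lost with 5 of the 6 arrays left out in turn, Cct6a (up to 0.134) keeping it without tail-suspension replicate 2 and Bag2 (up to 0.111) without sham replicate 3. Bag3, the partner of Hspb8, had 6.20, 6.14 and 5.88 in sham and 5.78, 6.07 and 5.84 in tail-suspension. Its groups overlapped, and its log2 fold change of −0.18 did not pass (adjusted p = 0.347, limma). Bag6 is on this array under an older name that the pattern does not take. Hspa12b, Hspa13, Dnaja4 and Cct6a complete the 16 lower genes and were named after their values were seen.

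Where a gene had several probes, calls often rested on some of them. Of 23 genes with more than 1 tested probe, 14 had no probe past the threshold and 9 had at least 1. All probes were called in 3 of these 9 (Dnaja1, Dnaja4 and Hsph1) and only some in the other 6 (Dnajb2, Dnajb14, Hspa4, Hspa13, Hspe1 and Hspg2), and in no gene did probes pass in opposite directions. The distance between the highest and the lowest probe had a median of 0.16 on the log2 scale and was under 0.25 in 16 genes. It was 0.93 in Hspa4, an HSP110 protein, in which the brightest probe gave −0.09 (adjusted p = 0.61, limma) and the other 2 gave −0.65 (adjusted p = 0.0139, limma) and −1.02 (adjusted p = 0.00652, limma).

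The brightest Hspa4 probe had 4.96, 4.94 and 4.63 in sham and 4.70, 4.77 and 4.79 in tail-suspension, with overlap. The probe with the strongest fall had 0.74, 0.92 and 0.46 in sham and −0.27, −0.24 and −0.41 in tail-suspension, with none. The other 2 probes start 247 bases apart on mm9, at 1738 and 1491 bases from the brightest one. Whether they read different transcripts was not tested. Their first 30 of 60 bases are shown, with the brightest probe first (chr11:53075085-53075144), then the probe at −0.65 (chr11:53073347-53073406) and the probe at −1.02 (chr11:53073594-53073653), all on the minus strand of mm9.
Hspa4 probe 1: caagaagcttcctgagatggacattgattg
Hspa4 probe 2: aactctaggtcacattcttacactaagaaa
Hspa4 probe 3: tatgcaactgactgtccttaatgaagaact

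**Figure D5:**
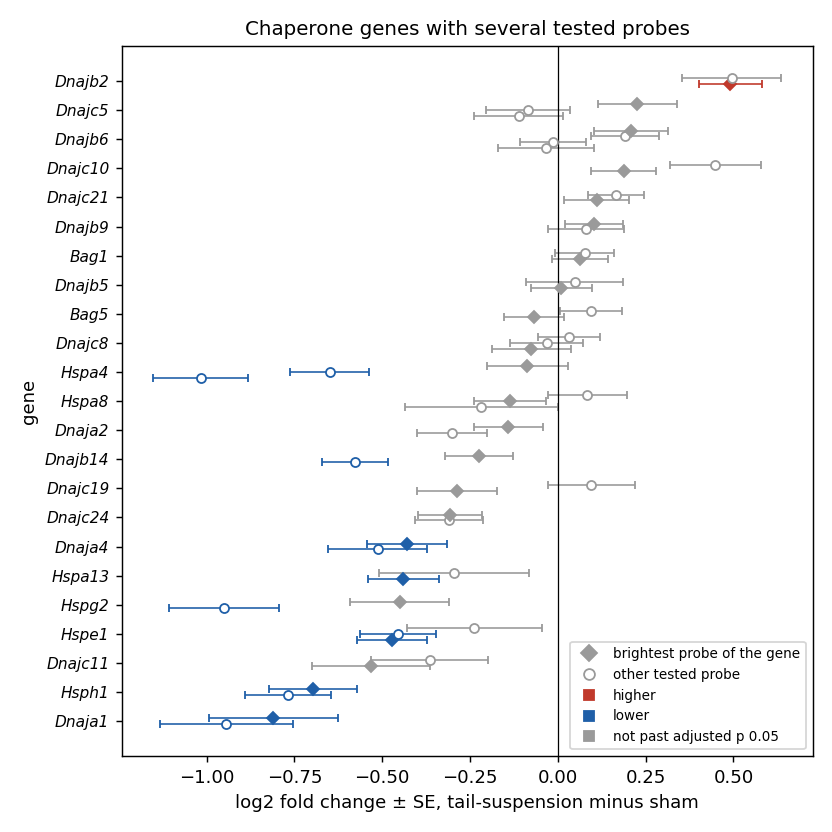
Log2 fold change with its standard error (3 arrays a group) for each tested probe of the 23 genes that have more than 1, with filled diamonds for the brightest probe and open circles for the others; blue probes were lower and red probes higher at an adjusted p under 0.05. Most probes of a gene lie together, and those of Hspa4 run from −0.09 to −1.02.

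Other genes of the chaperone system, from a list of co-chaperones, prefoldin subunits and folding factors outside the name pattern, held the largest change. Of 51 listed genes 50 were on the array and 46 were tested, of which 5 were higher (10.9%) and 8 lower (17.4%), against 10.4% and 11% of all genes. Fkbp5, a co-chaperone of HSP90 on steroid receptors that is induced by glucocorticoids, had 0.48, 1.18 and 0.58 in sham and 3.76, 3.52 and 4.21 in tail-suspension. All suspended hearts lay more than 2 above all sham hearts on the log2 scale. The rise was 8.47-fold (log2 fold change 3.08, standard error 0.24, adjusted p = 0.00213, limma), and with the row as a block it was 3.01 (adjusted p = 0.0312, limma). Fkbp4, the related co-chaperone of the same receptors, was lower, with 3.67, 3.45 and 3.31 in sham and 2.79, 2.55 and 2.60 in tail-suspension. It fell by 0.83 (standard error 0.12, adjusted p = 0.00899, limma), and no single array ended the call of either gene. With the row as a block Fkbp4 was at −0.68 and did not pass (adjusted p = 0.114, limma).

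Serpinh1, the collagen chaperone of the endoplasmic reticulum, had 4.07, 4.21 and 3.81 in sham and 3.13, 3.12 and 3.05 in tail-suspension. The suspended hearts lay within 0.10 of each other and below all sham hearts. It fell by 0.93 (standard error 0.12, adjusted p = 0.00603, limma), with an adjusted p of 0.0816 (limma) under the row as a block. Of the 4 fibroblast markers Col3a1 fell by 1.88 and Col1a1, at −0.95, Dcn, at 0.34, and Pdgfra, at 0.19, did not pass, with summed levels of 7.86 to 7.98 in sham and 8.002 to 8.27 in tail-suspension. Their part in the fall of Serpinh1 was not tested. Tomm70a, the receptor through which HSP70 and HSP90 hand clients to the outer mitochondrial membrane, fell by 0.61, and Pfdn4, a prefoldin subunit, by 0.52. Unc45a, a myosin chaperone, rose by 0.45, Sgta, a co-chaperone of membrane proteins, by 0.43 and Tomm34, a co-chaperone of mitochondrial import, by 0.40. All 5 calls were lost without sham replicate 1, sham replicate 2 or tail-suspension replicate 3, with an adjusted p of 0.131 for Unc45a, 0.0892 for Sgta, 0.118 for Tomm34, 0.0922 for Tomm70a and 0.111 for Pfdn4 without sham replicate 2 (limma). All were lost with the row as a block as well, where Unc45a was at 0.25 and Tomm34 at 0.26.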

How the data were processed

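Agilent Feature Extraction 10.7.1.1, per the file headers, gave each spot a processed intensity after background correction, and the authors deposited this output for 6 arrays and a table of log2 values whose columns share a median of 4.32 and, when sorted, differ by at most 0.000857. The columns of that table thus share nearly 1 distribution, which is what quantile normalization gives, and its centring is not stated. Fits with the authors' values and with quantile normalization are therefore no separate checks. Control and outlier spots were left out here, spots of 1 probe were averaged, and the log2 processed intensity minus that of the array's 75th percentile (300.0 to 375.0) was used. Well above background means this flag on at least 50% of a probe's spots (50.9% to 53.4% of probes per array), and 28032 probes well above background on all arrays of a group were tested with limma 3.58.1 in R 4.3.3 (lmFit, eBayes, no covariates, Benjamini-Hochberg, threshold 0.05). With 3 hearts a group the precision is limited, and the smallest two-sided p of an exact permutation test is 0.1. The 6 hearts are labelled as separate mice.

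The member genes and lists were chosen with earlier results of these data known. Named were 22 fixed chaperones, up to 12 rises and 12 falls past the threshold without overlap, genes whose probes differed or were above background in 1 group only, and the 4 largest changes each way among other chaperone-system genes. Probe coordinates are those of the files (mm9); promoters are RefSeq windows of GRCm38.p6, matched by symbol. The fit was tested on simulated data. Alternatives covered scaling, background, filters, test, blocks and arrays left out.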

Additional observations from a re-analysis of the deposited data

How the results depend on the processing

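The 20 called chaperone genes kept their direction in every one of 18 refits that gave them a value, and of them only Hsf4 kept its call in all 18. Against 4 higher and 16 lower, the counts were 1 and 2 without the filter on dim probes, 1 and 0 with slide row as a block, 1 and 1 with a 2-fold minimum, 3 and 4 by the methods' t-test, and 1 to 5 and 1 to 14 with an array left out. Over all probes, 2984 were higher and 2691 lower. These became 1038 and 805 without the filter, 1456 and 1203 by the methods' t-test, 326 and 178 with slide row as a block, and 964 to 2927 and 737 to 2552 with an array left out, and array weights gave 4377 lower. With the replicate number as a block 4 chaperone genes were higher and 11 lower, and 1725 and 1432 probes. The deviations of same-numbered hearts had correlations near 0 (−0.020, −0.018 and 0.050). These summaries do not decide whether single genes, such as Hspa1a, follow the number, which was not tested. Signs turned only among genes that did not pass. Hsp90aa1 was at 0.047 under normexp, 0.010 under quantile normalization and 0.010 with the authors' values, and Hsp90ab1 at 0.026 under normexp. Hspa5 was at −0.070 under quantile normalization and −0.062 with the authors' values, Hspb7 at −0.057 with array weights and −0.13 with slide row as a block, Hsf2 at −0.024 with slide row as a block, and another Hspa8 probe at 0.084. With an array left out, values ran from −0.13 to 0.21 for Hspa5, −0.10 to 0.15 for Hsp90aa1, −0.071 to 0.048 for Hsp90ab1, −0.11 to 0.13 for Hspb7, −0.044 to 0.24 for Hspb1, −0.044 to 0.12 for Hsf2 and −0.0029 to 0.10 for Cryab. The cause was not tested. Genes not well above background have only a bound.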
